A study of Mus musculus with 12 samples.

Results

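The 64 genes described here were those whose RNA was more abundant in CD8+ T cells expanded with all-trans retinoic acid (ATRA) than in cells expanded with its solvent, both after exposure to tumour cells and after a renewed T cell receptor stimulus. They were chosen from their measured values, out of 12770 gene symbols that both count tables share once predicted genes, Rik clones and pseudogenes named as such are set aside. In each of the 2 states a gene had to reach a mean of at least 5 CPM (counts scaled to the library total) in the ATRA libraries and a log2 ratio of ATRA to CTRL means of at least 1.5, with 0.5 CPM added to both means. The lowest ATRA library also had to lie above the highest CTRL library. In co-culture 357 genes met these conditions, 2.8% of the 12770, and after restimulation 537 did, 4.21%. The 69 genes that met them in both states made up 19.3% of the co-culture list and 12.8% of the restimulation list. Of 6 genes set aside by name, Ccr9, Tgm2, Acvrl1, Vegfa and Ndrg1 met the conditions and P2rx7 did not, which left the 64. Because the ATRA and CTRL values chose the genes, their differences between those groups are given as descriptions without a test.

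The cells came from spleens of OT-I mice, a strain with a transgenic T cell receptor against an ovalbumin peptide, and the labels give no further allele, age or sex. In all 4 groups the CD8+ T cells were stimulated in vitro through CD3e and CD28 with IL-2, in the presence of ATRA at 5 ng/mL (ATRA groups) or an equal volume of DMSO (CTRL groups), and then kept for 5 more days. Every group was then placed for 72 hours at 1% O2 with GL261 cells, a mouse glioma line, made to express ovalbumin, and no ATRA or DMSO was added at that stage. The CTRL and ATRA groups, 3 libraries each, were taken at that point, and the restimulated CTRL and ATRA groups, 3 libraries each, after 24 more hours with anti-CD3e antibody. Live CD45.2+ cells were sorted, so the gate itself did not select CD8, and a long tumour cell contact in a dish stands in for exhaustion in a tumour. Restimulated and co-cultured libraries carry different batch labels and lie in separate tables, so the effect of restimulation and that of batch and table cannot be told apart. Whether replicate libraries stem from different animals or dishes is not stated, and each p-value therefore measures only the spread between these libraries, which may be technical.

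Retinoic acid is a vitamin A derivative that binds nuclear receptors, the RARs, which pair with RXRs on DNA and switch between repressing and activating their target genes. In the gut it is made by dendritic cells and gives T cells homing receptors such as Ccr9 that direct them to the intestine. It also acts on T helper cell polarity and on the response of T cells to extracellular nucleotides. Genes that a short exposure alters may be direct targets of the receptors or lie further downstream, and RNA levels days later do not separate these.

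The 12 libraries held 16288111 to 26111497 counts, so that 3 counts, the limit that a count of 0 allows, corresponded to between 0.115 and 0.184 CPM, for counting error only. Summed CPM of 10 genes of CD8+ T cells was 2641 to 3337 in CTRL, 2819 to 3076 in ATRA, 2316 to 2636 in restimulated CTRL and 2757 to 2813 in restimulated ATRA libraries, with no row for Trac in the co-culture table. Lists of genes of other cells were summed in the same way. A glioma list of 14 genes, among them Vim, which T cells also express, summed to 869 to 1019, 1386 to 1423, 860.2 to 1052 and 991 to 1043 CPM in the same order of groups, with Gfap and Olig2 at 0 or without a row in all 4. A B cell list of 7 summed to 47.1 to 63.98, 42.5 to 62.7, 22.9 to 28.9 and 48.7 to 53.4 CPM, and edgeR called 1 higher and 1 lower of 3 tested in ATRA cells after co-culture and 6 higher of 6 tested after restimulation, Pax5 being at 0 or without a row in all groups but restimulated ATRA. An NK cell list of 8 summed to 203 to 275, 19.9 to 132, 117 to 137 and 23.1 to 30.2 CPM, and a monocyte and macrophage list of 8, with Csf1r at 0 or without a row throughout, to 104 to 195, 46.0 to 90.9, 249.9 to 417 and 73.8 to 89.7 CPM. A dendritic cell list of 11 summed to 65.7 to 68.2, 109 to 188, 67.7 to 105 and 97.9 to 101 CPM. A CD4 T cell list of 7 summed to 46.0 to 50.9, 68.4 to 79.5, 19.9 to 26.5 and 26.3 to 29.7 CPM. After co-culture edgeR called 1 higher and 2 lower of 5 tested in the dendritic cell list and 1 higher and 3 lower of 6 in the CD4 list. In the glioma list it called 3 higher and 3 lower of 6, in the NK list 0 and 1 of 3, and in the monocyte list 2 and 2 of 4. After restimulation it called 1 and 2 of 6 in the dendritic cell list and 2 and 0 of 5 in the CD4 list. The glioma list then had 3 and 1 of 7, the NK list 2 and 2 of 5, and the monocyte list 1 and 1 of 3. Of all genes tested, 18.1% were called higher and 15.5% lower in co-culture, and 31.8% and 30.8% after restimulation. The part of such cells in the values of the 64 was not tested. Within groups, log2 CPM correlated at 0.954 to 0.996, lowest between ATRA replicates 1 and 3. In this bulk RNA, fewer cells that express a gene and less RNA per cell cannot be told apart.

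The typical gene of the 64 was a low or middling transcript that was about as far apart between ATRA and CTRL in both states. Median CPM was 4.36 in CTRL and 21.8 in ATRA libraries after co-culture, and 2.75 and 23.0 after restimulation. The median log2 ratio was 2.18 in co-culture and 2.38 after restimulation, beside -0.04 and 0.00 over all 12770 genes. After restimulation the ratio was larger for 38 genes and smaller for 26, and it differed by no more than 1 between the states for 47. In the ATRA libraries 10 genes reached 100 CPM in co-culture and 7 after restimulation, while 6 stayed under 10 CPM in both. Compared per replicate number, 26 of the 64 had a log2 ratio of at least 1.5 in all 3 pairs of both states, and the lowest single pair stood at 0.36 in co-culture and 0.55 after restimulation. Separation of the libraries without overlap, which the rule required of all 64, was found for 24.7% of the 12770 genes in co-culture and for 33.4% after restimulation. In edgeR's quasi-likelihood fit over all genes, 62 of the 64 were called higher in ATRA cells in co-culture, where 18.1% of all genes tested were higher and 33.6% were called in either direction. After restimulation 60 were called higher, where 31.8% of all genes were higher and 62.6% were called in either direction. The rule used these contrasts, so nothing is read from these counts. The genes just inside the limit on the ratio were Hrh2 with a smaller log2 ratio of 1.51, Irak2 with 1.53, Gab2 with 1.53, Runx1 with 1.55 and Kctd11 with 1.55. Those just outside were Tjp1 at 1.49, Nucb2 at 1.48, Jcad at 1.46, Plxna1 at 1.44 and Itga1 at 1.43.

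**Figure D1:**
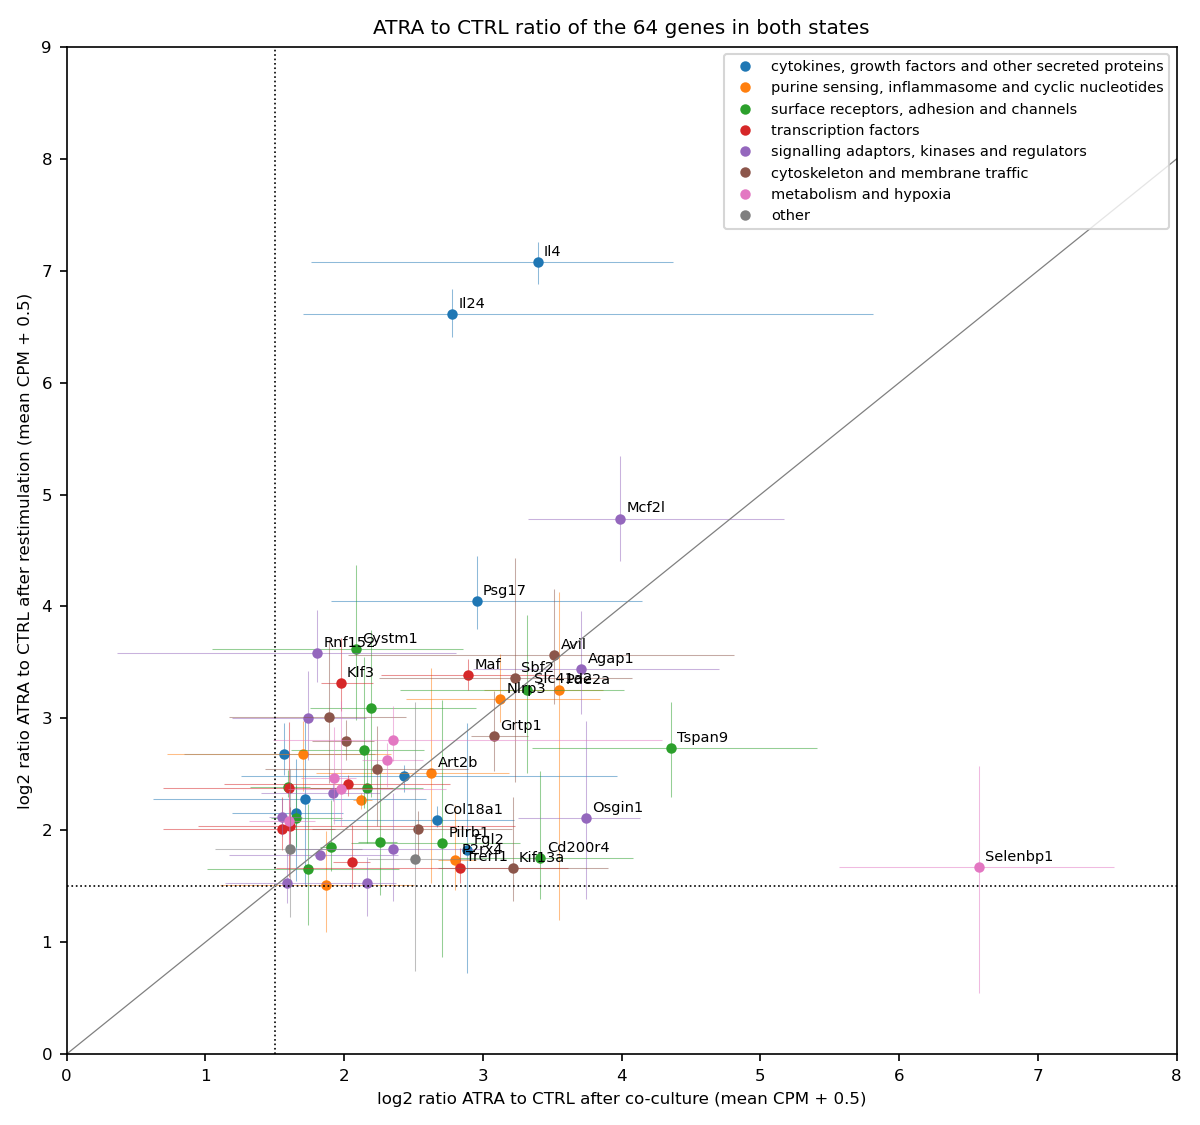
Log2 ratio of ATRA to CTRL mean CPM (0.5 added) after co-culture (horizontal axis) and after restimulation (vertical axis) for the 64 genes, coloured by role. Lines span the 3 pairs of equal replicate number, dotted lines mark the limit of 1.5, and Il4 and Il24 lie far above the diagonal while Selenbp1, at 6.57 and 1.67, lies far below it.

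All 64 genes also had TPM values in the deposited restimulation table, which scale for transcript length and so allow levels to be compared between genes. In the restimulated ATRA columns Il24 was highest at 361 ± 8.67 TPM (SD, n = 3), followed by Hilpda at 285 ± 16.4, Gzmg at 275 ± 3.81, Satb1 at 246 ± 11.3 and Il4 at 240.0 ± 24.4. The columns of Hilpda and Gzmg overlapped, as did those of Satb1 and Il4, while Il24 lay above all of these and Gzmg above Satb1 in every column. The lowest were Cd93 at 3.05 and Maf at 3.21 TPM. Every ATRA column lay above every CTRL column for all 64, and 61 reached a log2 ratio of 1.5 in TPM, the exceptions being Gab2, Hrh2 and Runx1. The TPM describe the same restimulated samples whose counts chose the genes, so this was largely set by the rule and gives no independent support.

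Promoter sequences were compared for letters that the receptors and hypoxia-inducible factors are known to read. RefSeq promoter windows on GRCm38.p6, from 250 bases before to 50 after a start site, were matched by symbol for 52 of the 64 genes, with 85 windows among them, and for 10091 of the other genes. The hexamer AGGTCA and its variants, with letters AGTTCA in the first, GGGTCA in the second and GGTTCA in the third, are read by nuclear receptors of this family and were searched on both strands, alone and as direct repeats with a spacer of 1, 2 or 5 bases. No window of the 52 genes held such a repeat, and a count of 0 of 52 allows a share of up to 5.77%. Among the other genes the share was 0.287% for a spacer of 1, 0.0793% for 2 and 0.0297% for 5. At least 1 hexamer was present for 28 of 52 genes, or 53.8% (95% Wilson interval 40.5 to 66.7), and for 42.4% of other genes. Counted per window, since the 64 had more windows per gene, the shares were 41.2% and 38.0%. The core letters ACGTG or GCGTG of the hypoxia response element were in 65.4% of the 52 genes and 66.8% of the others. The letters CACCC, read by Klf factors, were in 39 of 52 genes, or 75%, against 67.0%, and AGATAA or TGATAA, read by GATA factors, in 19.2% against 12.4%. Per window the hypoxia core was in 49.4% against 61.0%, CACCC in 65.9% against 63.5% and the GATA letters in 11.8% against 10.4%, so the comparison depends on the unit counted, and no difference was tested. Repeats are made of these hexamers, and matches of different motifs were counted separately even where they share bases. A match is a description and not a shown site, and the absence of one says only that the letters are not in the window.

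The 250 bases before the start of 3 genes are printed 5' to 3' on the plus strand of GRCm38.p6, credited to RefSeq, while the deposited files use mm39. They were chosen after the matches were seen. Hilpda (chr6:29272376-29272625) and P4ha2 (chr11:54100674-54100923) are the 2 of the 64 that stand in the hypoxia gene list, and capitals mark the hypoxia response core, with CACGC its reading on the minus strand in P4ha2. P2rx4 (chr5:122707294-122707543) held 3 of the receptor hexamers, more than any other of the 52 genes searched, which the capitals mark, with TGAACC and TGACCT being minus strand readings.

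Hilpda: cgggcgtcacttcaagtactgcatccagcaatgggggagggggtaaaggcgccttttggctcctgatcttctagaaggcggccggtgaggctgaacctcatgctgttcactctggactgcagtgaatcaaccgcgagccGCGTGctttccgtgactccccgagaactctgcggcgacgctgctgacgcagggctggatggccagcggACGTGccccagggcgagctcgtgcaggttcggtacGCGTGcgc

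P4ha2: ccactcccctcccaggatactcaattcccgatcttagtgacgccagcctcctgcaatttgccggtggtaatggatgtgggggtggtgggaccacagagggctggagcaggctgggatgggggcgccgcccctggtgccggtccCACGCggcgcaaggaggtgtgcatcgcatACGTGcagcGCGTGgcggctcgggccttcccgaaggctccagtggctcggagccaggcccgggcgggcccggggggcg

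P2rx4: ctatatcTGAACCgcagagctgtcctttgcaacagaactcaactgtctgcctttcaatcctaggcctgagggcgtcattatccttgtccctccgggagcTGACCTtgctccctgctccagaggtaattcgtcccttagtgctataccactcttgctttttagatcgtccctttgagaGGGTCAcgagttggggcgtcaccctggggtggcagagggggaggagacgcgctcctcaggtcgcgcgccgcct

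Each of these windows held 3 marked matches, at 111, 43 and 8 bases before the start in Hilpda, 107, 78 and 69 in P4ha2 and 243, 151 and 73 in P2rx4, counted at the first base of each.

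Cytokines and other secreted proteins made up 9 of the 64, and 2 interleukins among them showed the largest ratios after restimulation. Il4, the type 2 cytokine that acts on B cells and helper T cells, stood at 0, 0.0395 and 0.116 CPM in the CTRL libraries and 1.19, 2.50 and 12.2 in the ATRA libraries after co-culture. Its counts in the CTRL libraries were 0, 1 and 3, so that the CTRL level lay at or under the detection limit. After restimulation Il4 was at 0, 0 and 0.0536 CPM in CTRL and 67.4, 76.1 and 64.7 in ATRA libraries, with a single count over the 3 CTRL libraries. The log2 ratio was 3.40 in co-culture and 7.08 after restimulation. With 0.1 in place of 0.5 CPM added it was 5.15 and 9.20, and without ATRA replicate 3, the highest library by far, the co-culture value was 2.09.

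Il24, a cytokine of the interleukin-10 family, was measured at 0.268, 29.4 and 27.0 CPM in CTRL and 42.5, 97.0 and 259 CPM in ATRA libraries after co-culture, and CTRL replicate 1 lay far under the other CTRL libraries. After restimulation it was at 2.78, 2.21 and 1.88 CPM in CTRL and 278, 268 and 271 CPM in ATRA libraries. The restimulated ATRA mean was 119 times the CTRL mean, whereas the highest CTRL and the lowest ATRA library in co-culture were 29.4 and 42.5 CPM. Its log2 ratio of 2.78 in co-culture came to 1.86 without ATRA replicate 3, and it was 6.61 after restimulation.

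Psg17, a secreted glycoprotein of the pregnancy-specific family, stood at 1.42, 4.43 and 2.90 CPM in CTRL and 33.5, 32.3 and 12.2 CPM in ATRA libraries after co-culture. After restimulation its values were 0.852, 1.04 and 1.02 CPM and 29.0, 22.0 and 20.6 CPM. ATRA replicate 3 was its lowest ATRA library and still lay above every CTRL library. Fgl2, a fibrinogen-like protein secreted by regulatory T cells among others, was even across the co-culture libraries of each group, at 9.27, 9.41 and 8.38 CPM in CTRL and 73.2, 71.0 and 65.4 CPM in ATRA. After restimulation it was at 11.6, 11.0 and 48.3 CPM in CTRL and 86.1, 88.9 and 79.8 CPM in ATRA libraries. CTRL replicate 3 lay closer to the ATRA libraries than to its own group, and without it the log2 ratio was 2.86 in place of 1.83.

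Gzmg, a granzyme of a cluster of similar genes, stood at 111, 90.0 and 89.9 CPM in CTRL and 171, 245 and 545 CPM in ATRA libraries after co-culture. The restimulated values were 30.0, 24.9 and 72.3 CPM in CTRL and 213, 205 and 206 CPM in ATRA. The log2 ratios were 1.72 and 2.28, the first being 1.10 without ATRA replicate 3 and the second 2.90 without restimulated CTRL replicate 3. Its closest relatives went the other way in co-culture, Gzmd with means of 299.9 CPM in CTRL and 125 in ATRA and Gzme with 107 and 38.1. After restimulation both were higher in ATRA, Gzmd at 111 and 233 CPM. The assignment of reads shared between these near-identical genes is not stated, so the level of Gzmg is uncertain.

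The other secreted proteins had log2 ratios between 1.56 and 2.68. Lif, a cytokine that signals through gp130, was at 2.43 in co-culture and 2.48 after restimulation. Col18a1, the collagen from which endostatin is cut, was at 2.67 and 2.09, and Tcn2, a carrier of vitamin B12, at 1.65 and 2.15. Metrnl, a secreted meteorin-like protein, rested on ATRA replicate 3 in co-culture, with 0.881, 1.70 and 1.85 CPM in CTRL and 1.99, 3.57 and 10.5 CPM in ATRA libraries, and its log2 ratio of 1.56 there was 0.73 without that library. After restimulation it was 2.68, with ATRA libraries at 14.8, 16.8 and 15.9 CPM.

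**Figure D2:**
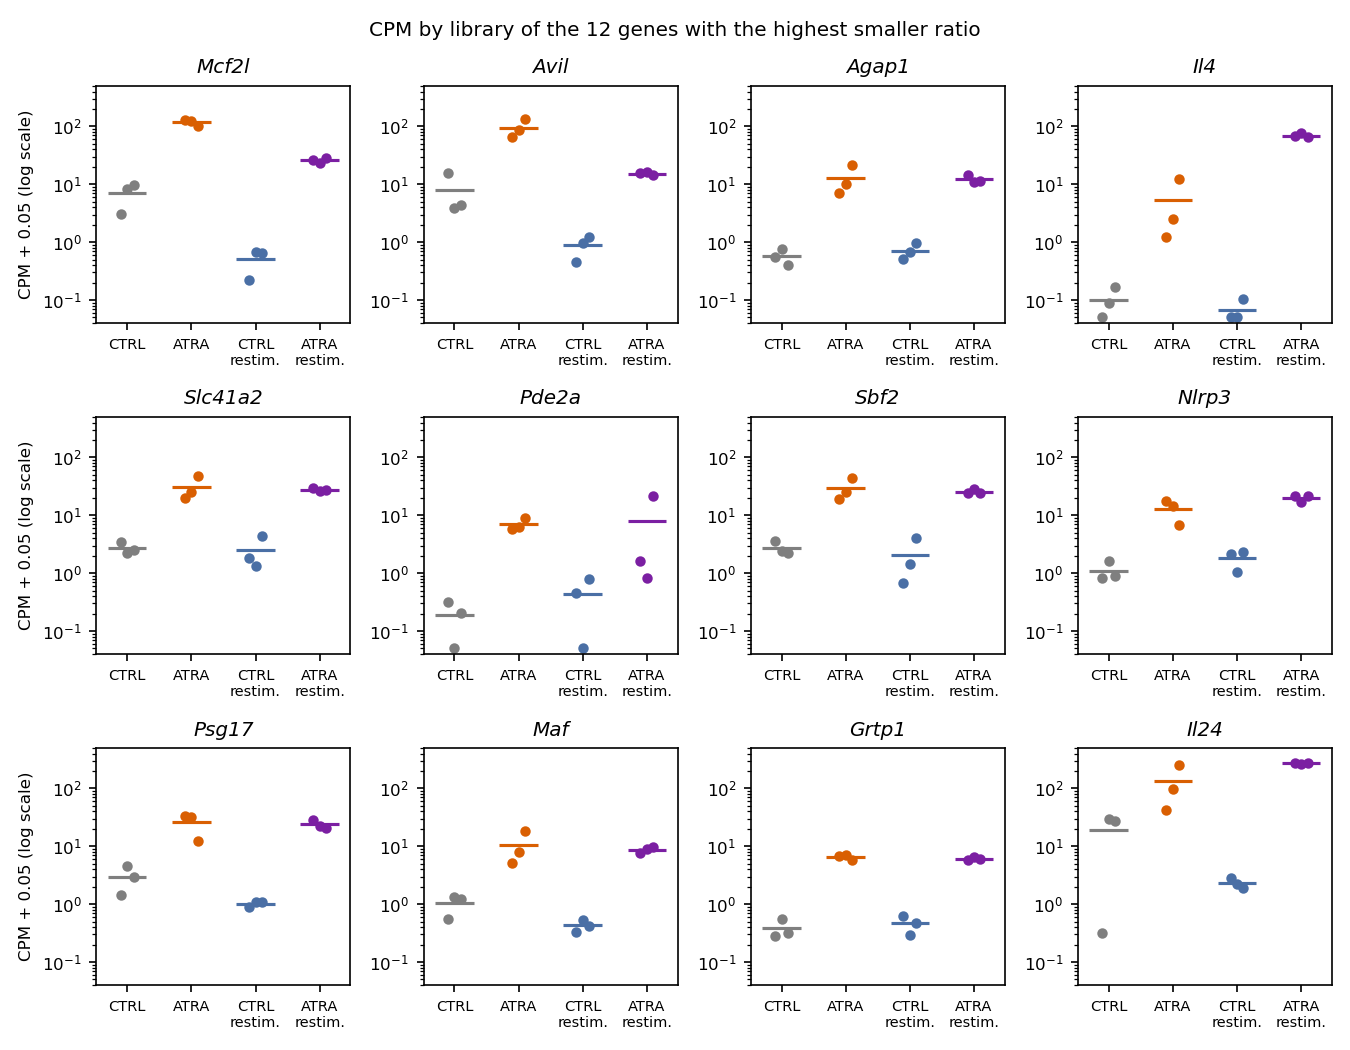
CPM (0.05 added, log scale) of the 12 genes with the highest smaller log2 ratio, with 1 point per library, a line at the group mean and the 4 groups along the horizontal axis. In each panel the 3 ATRA points lie above the 3 CTRL points of the same state, and for Pde2a a single restimulated ATRA library at 21.4 CPM sets the group mean.

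A set of 7 genes served purine sensing, the inflammasome and cyclic nucleotides. P2rx4, an ATP-gated ion channel, stood at 2.91, 4.15 and 5.21 CPM in CTRL and 21.3, 29.6 and 43.6 CPM in ATRA libraries after co-culture, and at 9.59, 7.24 and 11.1 and 29.0, 35.8 and 31.5 CPM after restimulation. The ATRA level was about the same in both states and the CTRL level was higher after restimulation, with log2 ratios of 2.80 and 1.73. Art2b, a cell surface enzyme that modifies the related channel P2rx7 in mouse T cells, was at 1.53, 0.475 and 0.811 and 6.56, 8.40 and 10.2 CPM in co-culture, and at 1.19, 1.35 and 4.99 and 17.9, 16.7 and 15.4 CPM after restimulation. All 6 ATRA libraries of Art2b lay above all 6 CTRL libraries. Its near-identical copy Art2a had group means of at most 0.620 CPM. P2rx7 itself, which was set aside by name and failed the rule after restimulation, had means of 0.362 and 65.2 CPM in co-culture and of 2.70 and 2.93 CPM after restimulation.

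Nlrp3, the sensor of the inflammasome that ATP-gated channels can trigger, stood at 0.766, 1.54 and 0.849 CPM in CTRL and 17.7, 14.6 and 6.84 CPM in ATRA libraries after co-culture. Restimulated cells had 2.10, 0.982 and 2.25 CPM in CTRL and 21.9, 17.1 and 21.1 CPM in ATRA. ATRA replicate 3 was its lowest ATRA library in co-culture, and the groups did not overlap in either state, with log2 ratios of 3.13 and 3.17.

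The receptors and phosphodiesterases of cyclic nucleotides differed in how even they were. Pde4b, which breaks down cyclic AMP, was at 20.4, 14.6 and 17.2 CPM in CTRL and 34.0, 50.7 and 88.8 CPM in ATRA libraries after co-culture, and at 16.5, 17.3 and 24.4 and 133, 123 and 126 CPM after restimulation. Its log2 ratio was 1.71 and then 2.68, and the restimulated ATRA libraries lay close together, while restimulated CTRL replicate 3 lay above the other CTRL libraries of that state. Pde2a, a phosphodiesterase that cyclic GMP stimulates, was even in co-culture, with 0.268, 0 and 0.154 CPM in CTRL and 5.69, 6.28 and 9.03 CPM in ATRA. The restimulated values were 0.397, 0 and 0.751 CPM in CTRL and 1.56, 0.782 and 21.4 CPM in ATRA, so 1 library carried the value. Without that library, replicate 3, the log2 ratio of 3.25 was 0.92. In the RefSeq order of genes Pde2a and Art2b are adjacent on chromosome 7. Hrh2, a histamine receptor that raises cyclic AMP, had log2 ratios of 1.87 and 1.51.

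Surface receptors, adhesion molecules and channels were the largest role, with 13 genes. Slc41a2, a magnesium transporter, stood at 3.37, 2.14 and 2.51 CPM in CTRL and 19.9, 25.4 and 48.3 CPM in ATRA libraries after co-culture, and at 1.76, 1.29 and 4.29 and 29.6, 26.6 and 26.8 CPM after restimulation. Its log2 ratios were 3.32 and 3.26, and no ATRA library overlapped a CTRL library in either state. Tspan9, a tetraspanin, was at 0.0383, 0.791 and 0.347 and 5.01, 12.7 and 35.5 CPM in co-culture, and at 0.284, 0.246 and 1.02 and 5.74, 6.10 and 6.96 CPM after restimulation. ATRA replicate 3 was the highest by far, and the co-culture ratio of 4.35 was 3.39 without it, against 2.74 after restimulation. Cystm1, a small membrane protein, was at 4.10, 4.51 and 4.59 and 8.99, 15.5 and 36.4 CPM in co-culture, and at 1.19, 1.78 and 3.86 and 34.6, 32.3 and 34.0 CPM after restimulation. Its ratio went from 2.08, or 1.38 without ATRA replicate 3, to 3.62, and restimulated ATRA libraries were even.

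Cd200r4 and Cd200r1, neighbours on chromosome 16, encode immunoglobulin-family receptors, the second of which is the inhibitory receptor for Cd200. Cd200r4 stood at 0.191, 0.198 and 0.116 CPM in CTRL and 4.41, 5.52 and 9.95 CPM in ATRA libraries after co-culture, and at 1.99, 1.29 and 4.40 and 7.24, 9.85 and 12.3 CPM after restimulation. Its log2 ratio was 3.41 and then 1.75, as the CTRL libraries were higher after restimulation. Cd200r1 was at 1.88, 3.12 and 2.82 and 11.4, 15.0 and 16.8 CPM in co-culture and at 7.32, 4.24 and 10.7 and 29.7, 27.6 and 29.5 CPM after restimulation, with ratios of 2.26 and 1.89. Both genes share sequence with their family, so reads may be divided among them, and Pilrb1, an activating receptor of the paired immunoglobulin-like kind with a copy named Pilrb2, is uncertain for the same reason. Pilrb1 had log2 ratios of 2.71 and 1.88, the second being 3.03 without restimulated CTRL replicate 3, and Pilrb2 had group means of at most 1.06 CPM.

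Aqp9, a channel for water and glycerol, had log2 ratios of 2.19 in co-culture and 3.09 after restimulation. Igf1r, the receptor for insulin-like growth factor, stood at 4.94 ± 1.54 CPM in CTRL and 23.9 ± 0.335 CPM in ATRA libraries (SD, n = 3), the tightest ATRA group of the 13 in co-culture, and its ratios were 2.16 and 2.38. The remaining receptors and membrane proteins were Cd93, Aplp1, Gpr146, Tmem106a and Epcam, with log2 ratios from 1.60 to 2.72.

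Epcam, an epithelial adhesion molecule, stood at 2.03, 3.56 and 2.43 CPM in CTRL and 12.8, 12.1 and 5.42 CPM in ATRA libraries after co-culture, and at 1.65, 1.41 and 3.32 and 6.85, 8.49 and 8.00 CPM after restimulation. ATRA replicate 3 was its lowest ATRA library in co-culture, whereas other genes of an 8-gene epithelial list followed another course. Without Epcam the list summed to 0.881 to 1.23 CPM in CTRL, 25.2 to 95.5 in ATRA, 3.35 to 22.6 in restimulated CTRL and 1.35 to 2.09 in restimulated ATRA libraries. Cdh1, an adhesion molecule of the list, was at means of 0.855 and 37.7 CPM in co-culture and of 8.64 and 0.209 CPM after restimulation. Cldn4 was at 0 or had no row in 3 of the 4 groups, Grhl2 had no row in the co-culture table, and Krt8 was at 0 in all CTRL and all restimulated ATRA libraries. The part of other cells in the Epcam values was not tested.

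Among the 8 transcription factors, Satb1, a chromatin organiser of T cell development, had the highest TPM after restimulation. It stood at 82.6, 84.6 and 85.5 CPM in CTRL and 182, 268 and 583 CPM in ATRA libraries after co-culture, and at 105, 103 and 122 and 594, 571 and 606 CPM after restimulation. CTRL libraries were even in both states, while ATRA replicate 3 in co-culture lay near the restimulated ATRA libraries. The log2 ratios were 2.02 and 2.42, the first being 1.41 without that library. Maf, a factor known to drive Il4 in T helper cells, was at 0.498, 1.27 and 1.20 and 5.01, 7.98 and 18.6 CPM in co-culture, and at 0.284, 0.491 and 0.375 and 7.69, 8.96 and 9.59 CPM after restimulation. Its ratios were 2.89, or 2.23 without ATRA replicate 3, and 3.39.

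Klf3, a repressor of the Krueppel-like family, stood at 1.07, 1.46 and 1.24 CPM in CTRL and 5.21, 6.49 and 7.53 CPM in ATRA libraries after co-culture, and at 0.341, 0.675 and 0.697 and 10.5, 10.4 and 9.54 CPM after restimulation. Restimulated CTRL libraries were lower than co-cultured ones while ATRA libraries were higher, and the log2 ratio was 1.98 and then 3.31. Runx1, a factor of T cell differentiation, was at 4.67, 4.82 and 7.26 and 7.87, 15.0 and 29.1 CPM in co-culture, and at 9.42, 7.80 and 10.1 and 37.7, 40.3 and 37.1 CPM after restimulation. In co-culture the lowest ATRA library and the highest CTRL library of Runx1 were 7.87 and 7.26 CPM, so the groups were barely apart, and its ratios were 1.55 and 2.01. Trerf1, a zinc finger regulator, was at 6.78, 7.79 and 8.38 and 20.2, 44.5 and 108 CPM in co-culture, and at 8.06, 6.39 and 6.06 and 24.1, 21.2 and 23.0 CPM after restimulation. ATRA replicate 3 again stood out, and the co-culture ratio of 2.84 was 2.01 without it, beside 1.67 after restimulation.

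Hic1, a transcriptional repressor, was among the most even genes of the 64. It stood at 6.05, 7.47 and 7.49 CPM in CTRL and 26.5, 29.7 and 35.8 CPM in ATRA libraries after co-culture, and at 6.87, 9.15 and 10.8 and 29.9, 30.5 and 31.1 CPM after restimulation. The ratios were 2.05 and 1.72, and the ATRA level was alike in both states. Mycn, a relative of Myc, was at 1.42, 6.25 and 8.03 and 17.5, 17.6 and 15.9 CPM in co-culture, and at 1.82, 2.09 and 1.66 and 9.53, 8.44 and 9.50 CPM after restimulation. Mxd1, which competes with Myc for their partner Max, was at 8.46, 6.45 and 6.37 and 14, 19.1 and 34.6 CPM in co-culture, and at 1.93, 1.60 and 4.40 and 18.6, 14.7 and 14.2 CPM after restimulation. Mycn had ratios of 1.61 and 2.04 and Mxd1 of 1.60 and 2.38, without overlap of groups in either state, and both were lower in restimulated than in co-cultured libraries of the same kind as group means.

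Of 11 signalling adaptors, kinases and regulators, Mcf2l had the highest smaller ratio of all 64 genes. Mcf2l, which activates small GTPases, stood at 3.06, 8.19 and 9.85 CPM in CTRL and 128, 126 and 103 CPM in ATRA libraries after co-culture. Restimulated values were 0.170, 0.614 and 0.590 CPM in CTRL and 26.8, 23.1 and 27.9 CPM in ATRA. Its log2 ratio was 3.99 in co-culture and 4.79 after restimulation, with both groups lower in the second state. Agap1, which switches off ARF GTPases of membrane traffic, was at 0.498, 0.712 and 0.347 and 7.12, 9.89 and 21.5 CPM in co-culture, and at 0.454, 0.614 and 0.912 and 14.3, 10.8 and 11.1 CPM after restimulation. No CTRL library of Agap1 reached 1 CPM, and the ratios were 3.71 and 3.44.

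Hipk2, a nuclear kinase, stood at 43.9, 42.5 and 46.8 CPM in CTRL and 99.2, 129 and 248 CPM in ATRA libraries after co-culture, and at 65.3, 58.3 and 58.1 and 223, 201 and 203 CPM after restimulation. Its ratios of 1.82 and 1.78 rested on even CTRL libraries and, in co-culture, on a high ATRA replicate 3. Rnf152, a ubiquitin ligase of the lysosome, was at 3.26, 1.90 and 2.01 and 4.33, 7.39 and 17.1 CPM in co-culture, and at 1.65, 1.17 and 1.45 and 21.0, 25.6 and 21.0 CPM after restimulation. The ratio was 1.81, or 1.14 without ATRA replicate 3, and then 3.58. Osgin1, a growth inhibitor induced by oxidative stress, went the other way, with 1.38, 0.989 and 0.965 and 17.5, 20.5 and 25.2 CPM in co-culture, and 1.70, 2.58 and 5.68 and 16.8, 15.3 and 15.7 CPM after restimulation. Its ratio was 3.74 and then 2.11, with higher CTRL and lower ATRA libraries in the second state.

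Near the limit of the rule, Irak2, a kinase of Toll-like receptor signalling, was at 21.4, 30.8 and 31.3 CPM in CTRL and 51.1, 68.5 and 135 CPM in ATRA libraries after co-culture, and at 14.1, 10.3 and 13.6 and 38.3, 38.7 and 35.6 CPM after restimulation. Gab2, a docking adaptor, was at 11.2, 9.13 and 6.83 and 47.5, 42.2 and 37.5 CPM in co-culture, and at 3.86, 3.93 and 4.83 and 14.3, 13.0 and 12.0 CPM after restimulation. Kctd11, an adaptor of ubiquitin ligases, was at 27.6, 31.2 and 32.0 and 90.6, 89.9 and 88.8 CPM in co-culture, and at 9.31, 10.1 and 12.8 and 47.1, 46.7 and 50.8 CPM after restimulation. Kctd11 was the tightest of all 64 in the co-culture ATRA group, while Irak2 was high in ATRA replicate 3. Pag1, the adaptor that recruits the inhibitory kinase Csk, had ratios of 2.35 and 1.84, the tyrosine kinase Fes of 1.74 and 3.00, and the stress protein Gadd45a of 1.92 and 2.33.

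The cytoskeleton and membrane traffic accounted for 8 genes. Avil, an actin-binding protein of the villin family, stood at 15.5, 3.88 and 4.36 CPM in CTRL and 64.7, 86.6 and 136 CPM in ATRA libraries after co-culture, and at 0.397, 0.921 and 1.18 and 15.5, 16.1 and 14.2 CPM after restimulation. CTRL replicate 1 was high among the CTRL libraries, and without it the co-culture ratio of 3.51 was 4.38, beside 3.56 after restimulation. Sbf2, a myotubularin-related protein of membrane traffic, was at 3.60, 2.33 and 2.16 and 19.0, 25.0 and 44.5 CPM in co-culture, and at 0.624, 1.41 and 4.08 and 23.8, 28.8 and 24.2 CPM after restimulation. Restimulated CTRL replicate 3 was its highest CTRL library of that state, and without it the ratio of 3.36 was 4.10.

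Grtp1, a protein with the TBC domain of Rab regulators, was low but even, at 0.230, 0.514 and 0.270 CPM in CTRL and 6.80, 7.13 and 5.84 CPM in ATRA libraries after co-culture, and at 0.568, 0.246 and 0.429 and 5.68, 6.57 and 5.92 CPM after restimulation. Its ratios were 3.08 and 2.84, and no CTRL library passed 1 CPM. Kif13a, a kinesin motor, stood at 4.06, 4.82 and 4.05 and 31.3, 33.6 and 67.7 CPM in co-culture, and at 8.06, 5.03 and 9.33 and 21.6, 26.7 and 25.8 CPM after restimulation. The ratio was 3.21 and then 1.66, as ATRA libraries were lower and CTRL libraries higher in the second state. The ESCRT subunit Vps37b had ratios of 2.23 and 2.55, the actin regulator Cttn of 2.02 and 2.79, the membrane protein Basp1 of 2.53 and 2.01, and Fam114a1 of 1.89 and 3.01. In the RefSeq order Fam114a1 and Klf3 lie on chromosome 5 with 2 coding genes between them.

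Metabolism and hypoxia held 6 genes, among them the 2 hypoxia-list genes whose promoters are printed above. Hilpda, which coats lipid droplets and slows their breakdown, stood at 43.3, 40.9 and 38.3 CPM in CTRL and 191, 192 and 229 CPM in ATRA libraries after co-culture, and at 25.4, 26.8 and 37.6 and 178, 188 and 198 CPM after restimulation. The ATRA mean was 4.99 times the CTRL mean in co-culture and 6.27 times after restimulation, and no CTRL library came near an ATRA library of its state. P4ha2, a prolyl hydroxylase of collagen, was at 48.2, 70.9 and 69.8 and 158, 177 and 242 CPM in co-culture, and at 10.4, 14.4 and 12.9 and 55.5, 53.6 and 56.0 CPM after restimulation. Both groups were lower after restimulation, the ratio being 3.06-fold and then 4.37-fold. In the hypoxia list of 35 genes these 2 belong to, edgeR called 31 higher and 1 lower in ATRA cells of 35 tested after co-culture, and 16 higher and 11 lower of 32 tested after restimulation. Over all genes tested, the shares called higher and lower were 18.1% and 15.5% in co-culture and 31.8% and 30.8% after restimulation. Hilpda and P4ha2 were themselves called higher in both states, which was largely set by the rule that chose them.

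Ppp1r3b, which brings a phosphatase to glycogen, had the highest mean of the 64 in co-cultured ATRA libraries, and both groups were lower after restimulation. It stood at 116, 151 and 135 CPM in CTRL and 471, 490.5 and 573 CPM in ATRA after co-culture, and at 30.3, 26.0 and 44.2 and 176, 201 and 186 CPM after restimulation. Its ratios were 1.93 and 2.47, and restimulated CTRL replicate 3 lay above the other libraries of its group. Selenbp1, an oxidase of methanethiol that binds selenium, had the largest co-culture ratio of the 64, at 1.65, 1.38 and 1.00 CPM in CTRL and 101, 143 and 281 CPM in ATRA. Its restimulated libraries were at 1.53, 0.860 and 4.88 CPM in CTRL and 11.4, 7.61 and 7.36 CPM in ATRA. The log2 ratio was 6.57 and then 1.67, or 2.45 without restimulated CTRL replicate 3. Gpat3, an enzyme of glycerolipid synthesis, had ratios of 1.97 and 2.36, and Gcnt2, which branches cell surface glycans, of 2.36 and 2.81.

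The last 2 genes were Tgtp1, an interferon-induced GTPase, and Tcp11l2. Log2 ratios of Tcp11l2 were 1.61 in co-culture and 1.83 after restimulation, and those of Tgtp1 were 2.51 and 1.75. Tgtp1 stood at 37.9, 19.5 and 18.7 CPM in CTRL and 172, 159 and 108 CPM in ATRA libraries after co-culture, and at 10.8, 7.37 and 36.4 and 56.5, 69.0 and 61.2 CPM after restimulation. Restimulated CTRL replicate 3 lay well above the other CTRL libraries, and without it the ratio of 1.75 was 2.71. Its near-identical copy Tgtp2 had means of 44.8 and 127 CPM in co-culture and of 74.3 and 198 CPM after restimulation, and the split of reads between the 2 is uncertain.

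**Figure D3:**
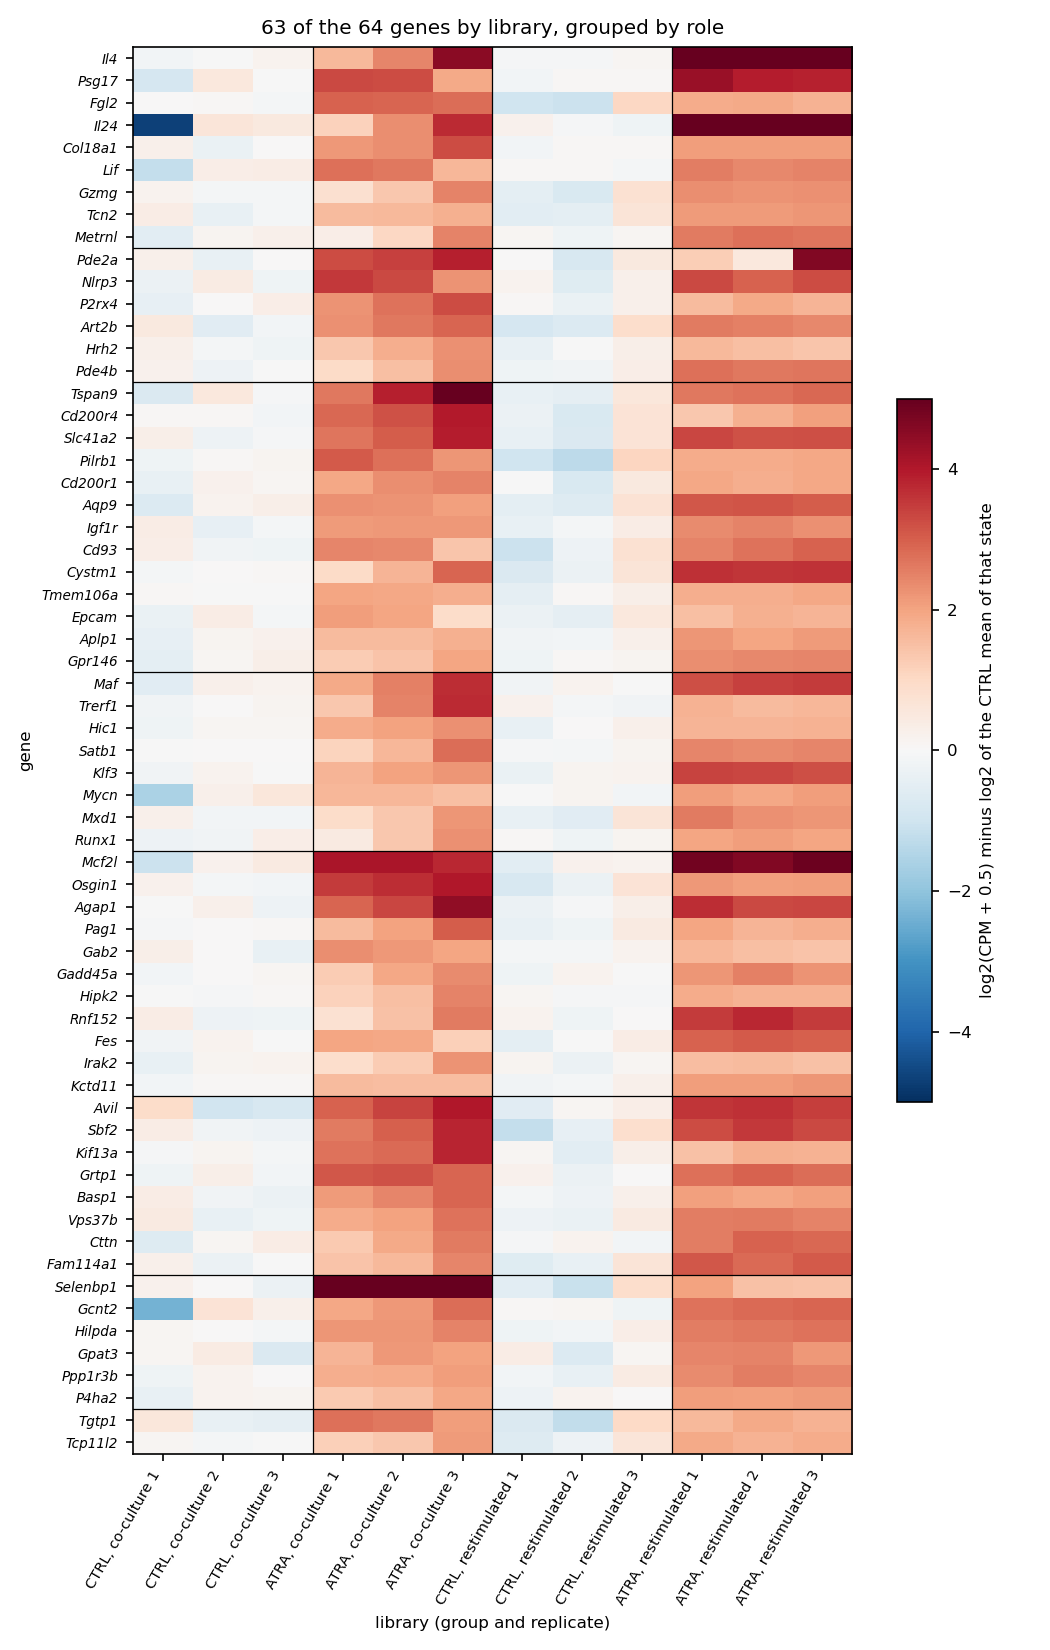
Log2(CPM + 0.5) of 63 of the 64 genes in each of the 12 libraries minus the log2 of the CTRL mean of the same state, with genes grouped by role (horizontal lines) and libraries by group (vertical lines), the colour scale ending at 5 in either direction. Many co-culture rows are darkest in ATRA replicate 3, while the 3 restimulated ATRA libraries look alike apart from Pde2a.

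By the median, the 64 genes varied more between libraries of a group than other genes did in both ATRA groups, with the smaller gap in restimulated ATRA cells. The median coefficient of variation of the 64 was 36.9% in co-cultured ATRA libraries, beside 14.1% for 9155 other genes with a mean of at least 5 CPM there, and 6.56% beside 5.46% in restimulated ATRA libraries. In CTRL libraries it was 26.1% beside 9.13% in co-culture and 33.2% beside 9.41% after restimulation. There the other genes again had a mean of at least 5 CPM, while the median of the 64 was 4.36 and 2.75 CPM. The CTRL values therefore set low genes beside more abundant ones, and nothing is read from that gap. Abundance was not matched in the ATRA groups either, and its part in those gaps was not tested. ATRA replicate 3 held the highest value of its group for 46 of the 64, or 71.9%, and for 32.0% of the other genes. Summed CPM of the 64 was 2845, 3324 and 4963 in the ATRA libraries and 3135, 3113 and 3145 in the restimulated ATRA libraries. Relative to the mean of ATRA replicates 1 and 2, replicate 3 was over 2-fold higher for 24 genes, over 2-fold lower for 5 (among them Nlrp3, Psg17 and Epcam) and in between for 35. Without that library 13 of the 64 had a co-culture log2 ratio under 1.5. The rule averages over this library, so its share of high values is not independent of the choice of genes.

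Restimulated CTRL replicate 3 was likewise highest in its group for 46 of the 64, against 28.7% of other genes, with summed CPM of 477, 457 and 712 in the 3 libraries. There the rule worked in the opposite sense, since a high CTRL library lowers the ratio. With library sizes scaled by the trimmed mean of M-values (TMM), 51 of the 64 were highest in ATRA replicate 3 and 47 in restimulated CTRL replicate 3. What sets these libraries apart was not tested.

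**Figure D4:**
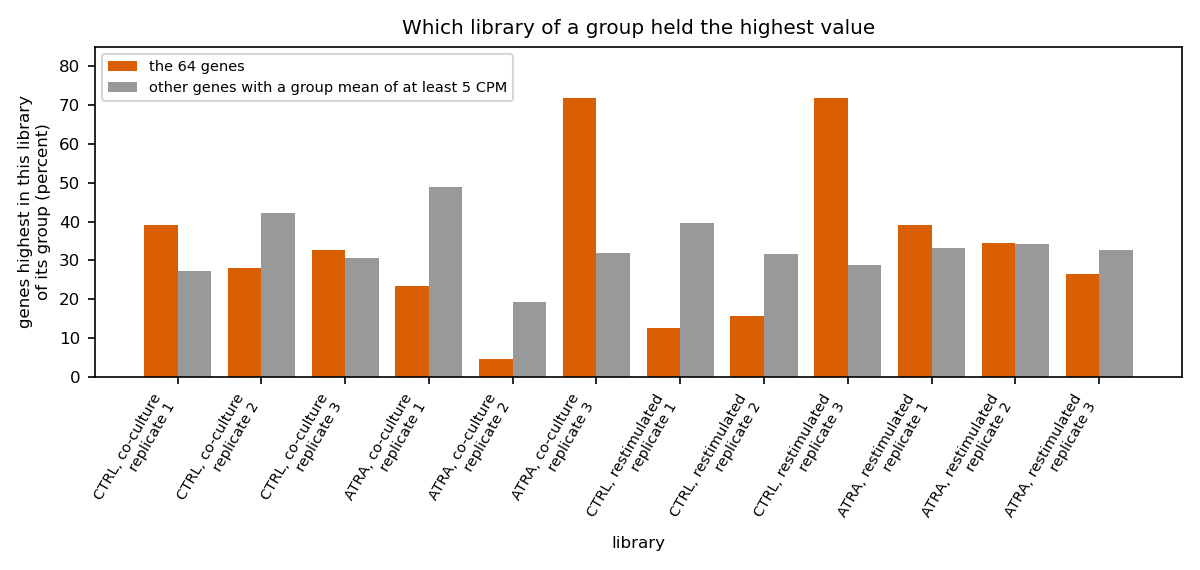
Percent of genes with their highest CPM in each library of its group, for the 64 genes (orange) and for other genes with a group mean of at least 5 CPM (grey). ATRA replicate 3 and restimulated CTRL replicate 3 each reach 71.9% of the 64, beside 32.0% and 28.7% of other genes.

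The change on restimulation, within CTRL cells and within ATRA cells, was no condition of the rule, but it is not free of it. On the scale of log2 ratios, the ATRA change minus the CTRL change is the difference between the 2 ratios of a gene. The rule required both ratios to be at least 1.5, and at least 5 CPM in the ATRA groups of both states. The CTRL libraries of both states also entered the rule, as they had to lie under the ATRA libraries. Shares called in CTRL cells, in ATRA cells and in both kinds of cells are therefore partly set by the choice of genes. edgeR's quasi-likelihood test was fitted over all genes, with Benjamini-Hochberg adjusted p under 0.05 as a call. In CTRL cells 60 of the 64 were tested, all but Grtp1, Il4, Pde2a and Tspan9, whose counts were too low. Of the 60, 12 rose (20%) and 18 fell (30.0%), beside 19.3% and 20.5% of the 11658 genes tested (39.8% in either direction), and their median log2 fold change was -0.48 against 0.00. In ATRA cells all 64 were tested, of which 8 rose (12.5%) and 17 fell (26.6%), beside 28.4% and 29.1% of 12001 genes (57.5% in either direction), with a median of -0.23 against -0.01. Without ATRA replicate 3 these counts became 24 that rose (37.5%) and 21 that fell (32.8%), beside 36.7% and 37.6% of all genes (74.3% in either direction), so the number of calls in ATRA cells rests on that library. In CTRL cells 6 of 59 rose (10.2%) and 15 fell (25.4%) without CTRL replicate 2, beside 14.8% and 16.3% of all genes (31.2% in either direction). Without restimulated CTRL replicate 3 it was 7 of 61 (11.5%) and 23 (37.7%), beside 15.7% and 17.4% (33.1% in either direction), so the number that rose in CTRL cells rests on single libraries too. No difference between shares was tested.

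A group of 12 genes fell in both kinds of cells, 66.7% of those that fell in CTRL and 70.6% of those that fell in ATRA cells. Over all genes tested 838 fell in both, 35.1% of the 2388 that fell in CTRL and 24.0% of the 3490 that fell in ATRA cells. Because the rule ties the 2 changes of a gene together, the difference between these shares is partly built in, and it was not tested. The 12 genes were Aplp1, Aqp9, Avil, Basp1, Gab2, Irak2, Kctd11, Mcf2l, Mycn, P4ha2, Ppp1r3b and Tcp11l2. Both calls held in each fit that leaves out 1 library for 8 of them, the exceptions being Mycn and Aqp9, whose CTRL calls were lost in 5 and 4 of 6 such fits, and Irak2 and Tcp11l2, whose ATRA calls were lost without any one restimulated ATRA library. The CTRL call of Tcp11l2 was also lost without restimulated CTRL replicate 2. Mcf2l fell, with a log2 fold change of -3.99 ± 0.54 (SE) in CTRL cells (edgeR adjusted p = 4.34e-04) and -2.32 ± 0.11 in ATRA cells (edgeR adjusted p = 2.43e-05). Avil changed by -3.35 ± 0.74 in CTRL cells (edgeR adjusted p = 0.0121), or -2.35 without CTRL replicate 1, and by -2.80 ± 0.32 in ATRA cells (edgeR adjusted p = 5.38e-04). The collagen hydroxylase P4ha2 changed by -2.40 ± 0.17 (edgeR adjusted p = 4.39e-06) and -1.95 ± 0.21 (edgeR adjusted p = 4.10e-04). Ppp1r3b, of glycogen storage, changed by -2.07 ± 0.19 in CTRL cells (edgeR adjusted p = 6.64e-05) and -1.58 ± 0.14 in ATRA cells (edgeR adjusted p = 1.81e-04). In these 4 genes the restimulated libraries all lay under the co-cultured libraries of the same cells.

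Cd200r1, Col18a1 and Hrh2 were among 4 genes that rose in both, 33.3% of those that rose in CTRL and 50% of those that rose in ATRA cells, beside 664 of all genes, 29.5% and 19.4% of the 2252 and 3414 that rose. The same limit from the rule applies to these shares. The histamine receptor Hrh2 changed by 2.58 ± 0.28 (SE) in CTRL cells (edgeR adjusted p = 7.10e-05) and 1.90 ± 0.29 in ATRA cells (edgeR adjusted p = 0.00182). Its co-culture libraries were at 1.95, 1.42 and 1.27 CPM in CTRL and 4.77, 6.66 and 9.57 CPM in ATRA, and its restimulated ones at 7.61, 9.76 and 12.2 and 31.7, 28.8 and 26.5 CPM. Hrh2 therefore had its highest level in restimulated ATRA cells, with no library of another group as high. Col18a1 changed by 1.88 ± 0.29 in CTRL cells (edgeR adjusted p = 6.17e-04) and 0.97 ± 0.34 in ATRA cells (edgeR adjusted p = 0.0453). The second call was lost without any one of ATRA replicates 1 and 2 or of the 3 restimulated ATRA libraries, with adjusted p from 0.0856 to 0.131.

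Other genes changed in a single kind of cell, or in opposite senses, and the difference between cells was not tested. Cd200r4 rose in CTRL cells by 3.81 ± 0.59 (edgeR adjusted p = 6.83e-04), or 3.15 without restimulated CTRL replicate 3, and had 0.41 ± 0.39 in ATRA cells (edgeR adjusted p = 0.397). Without ATRA replicate 3 Cd200r4 rose in ATRA cells too, by 0.92 (edgeR adjusted p = 0.00155). Il4 rose in ATRA cells by 3.51 ± 0.82 (edgeR adjusted p = 0.00995), or 5.17 without ATRA replicate 3, and was too low for a test in CTRL cells. Selenbp1 fell in ATRA cells, with -4.48 ± 0.49 (edgeR adjusted p = 4.37e-04), or -3.87 without ATRA replicate 3, and had 0.77 ± 0.58 in CTRL cells (edgeR adjusted p = 0.327). Kif13a was called in opposite directions, 0.71 ± 0.25 in CTRL (edgeR adjusted p = 0.0427) and -0.997 ± 0.35 in ATRA cells (edgeR adjusted p = 0.0474). The CTRL call of Kif13a was lost in 5 of 6 fits that leave out 1 library, and the ATRA call in the 3 that leave out a restimulated ATRA library. Neither change was called for 26 genes, of which Grtp1, Pde2a and Tspan9 were not tested in CTRL cells. With 1 library left out, 19 of the 26 gained a call in at least 1 fit, and Gadd45a, Gpat3, Grtp1, Hic1, Igf1r, Nlrp3 and Slc41a2 in none. Il24 fell in CTRL cells without CTRL replicate 1, with -3.68 (edgeR adjusted p = 1.72e-07), and rose in ATRA cells without ATRA replicate 3, with 1.90 (edgeR adjusted p = 0.0302). Gzmg fell in CTRL cells without restimulated CTRL replicate 3, with -1.91 (edgeR adjusted p = 8.57e-05), and Pde4b rose in ATRA cells without ATRA replicate 3, with 1.52 (edgeR adjusted p = 3.37e-04).

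**Figure D5:**
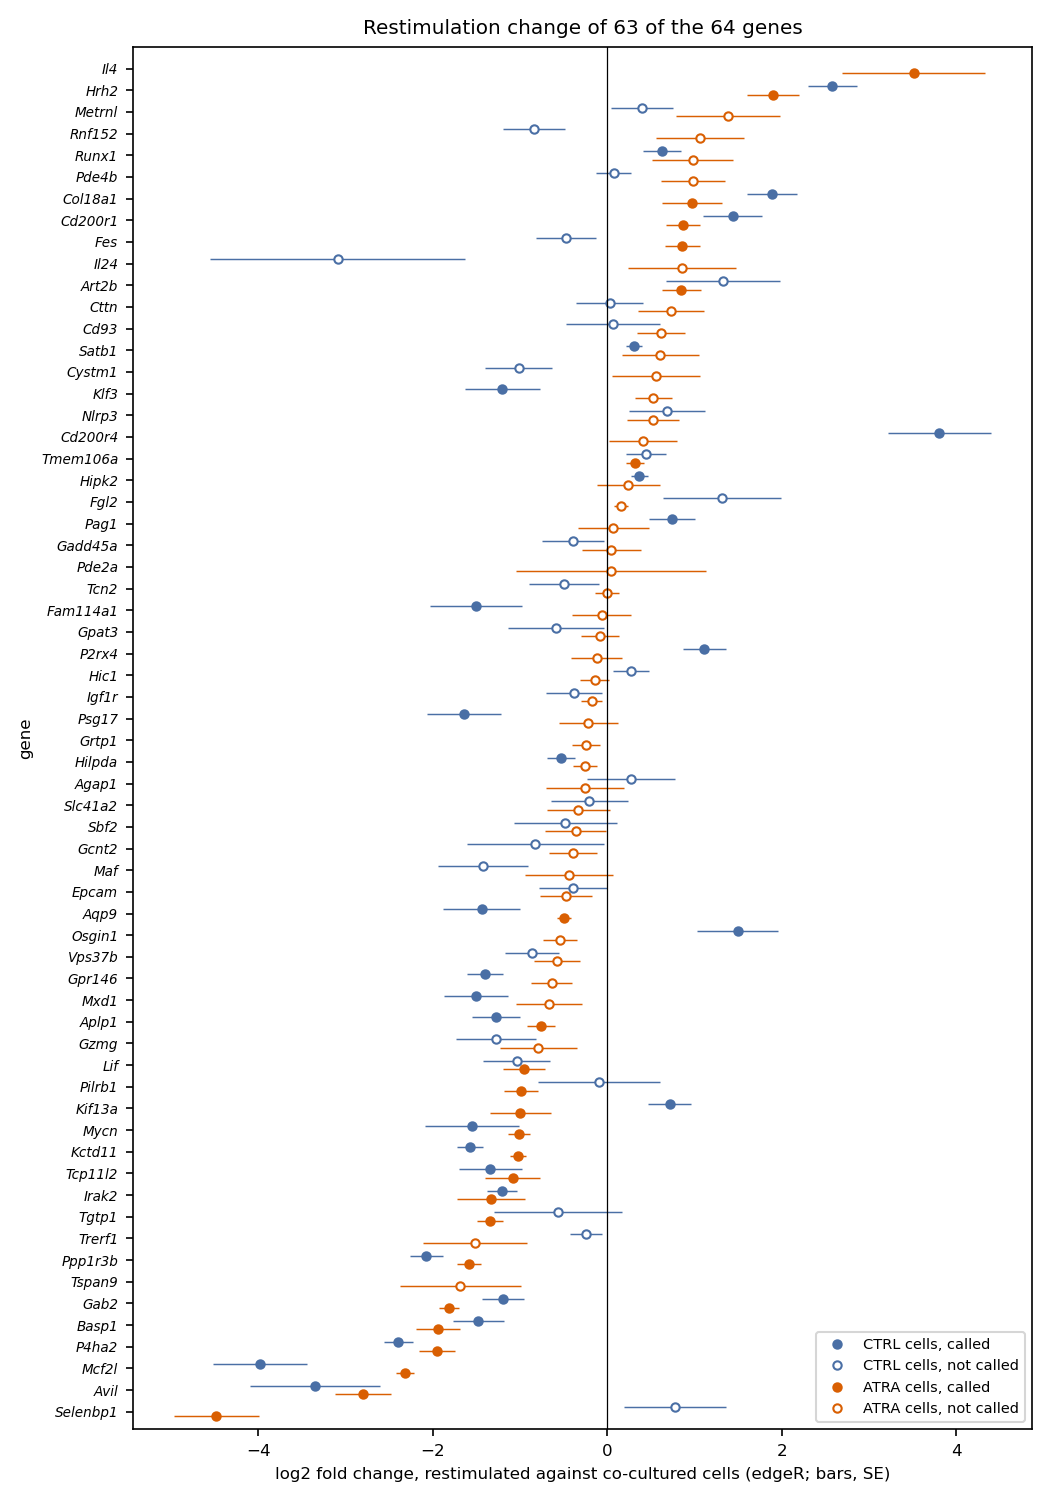
Log2 fold change from co-cultured to restimulated cells for 63 of the 64 genes (edgeR; bars, SE), in CTRL cells (blue) and ATRA cells (orange), filled where called at an adjusted p under 0.05. Mcf2l, Avil and P4ha2 lie at the low end in both, Selenbp1 at the low end in ATRA cells alone, and Il4 at 3.51 at the high end in ATRA cells.

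The gene lists that hold members of the 64, and the retinoid list, are given for context, with calls of edgeR at an adjusted p under 0.05. Of the purine handling list of 14 genes, which holds P2rx4, Art2b and Pde4b, 8 were higher and 2 lower in ATRA cells of 12 tested after co-culture, and 6 higher and 2 lower of 12 after restimulation. The progenitor and memory list of 17, which holds Satb1, had 7 higher and 3 lower of 14 in co-culture and 5 higher and 6 lower of 14 after restimulation. Its Ccr7, a lymph node homing receptor, was at means of 53.9 and 201 CPM in co-culture and of 60.3 and 10.2 CPM after restimulation, so that Satb1 and Ccr7 were alike in the first state and opposite in the second. The retinoid list of 27 genes had 6 higher and 2 lower of 14 in co-culture, and 10 higher and 4 lower of 16 after restimulation. Its Crabp2, a carrier of retinoic acid, was at means of 38.5 and 0.730 CPM in co-culture and of 1.74 and 33.0 CPM after restimulation, and therefore lies outside the 64. In all genes tested, 18.1% were called higher and 15.5% lower in co-culture, and 31.8% and 30.8% after restimulation. P2rx4, Art2b, Pde4b and Satb1 were chosen for higher ATRA values and were called higher in both states. Part of the higher calls in their lists is therefore set by the rule.

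Chromosome 11 carried 10 of the 64 genes, chromosome 7 carried 9 and chromosome 5 carried 8. The shares of all genes on these chromosomes were not counted, so nothing is read from these numbers. Adjacent pairs in the RefSeq order were limited to Cd200r1 with Cd200r4 and Pde2a with Art2b.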

How the data were processed

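Bulk RNA was sequenced from sorted live CD45.2+ cells with a stranded total RNA kit, in 12 libraries of 4 groups, grouped by the sample titles. The authors deposited whole-number counts per gene symbol in 2 tables, 1 per state, and TPM for the restimulated libraries. The submitters' processing notes name the mm39 build and, for software, DESeq2 1.42.1, Salmon 1.10.3, STAR 2.7.11b and cutadapt 5.0. The annotation, the use of strand in counting and the part each tool played were not given in the sources used here, so that antisense partners may share reads. The co-culture count table had 13948 rows, each summing to at least 10, and that of the restimulated libraries had 35588, of which 16386 were at 0 and 32 symbols were repeated, and the row with the largest total was kept. TPM columns were matched to groups and used as another scale for the same restimulated samples.

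CPM was computed from deposited counts by library total (Python 3.11.15, pandas 2.3.3), with 0.5 CPM added for ratios. Across all genes, edgeR 4.0.16 in R 4.3.3 was run with TMM factors, filterByExpr and the quasi-likelihood test on the 2 groups compared, with Benjamini-Hochberg adjusted p under 0.05 as a call. Alternatives were DESeq2 1.42.0, other scalings, no filter, a replicate block, leaving out each library, other pseudocounts, thresholds and minimum CPM, and TPM. On simulated counts, of 2-fold changes 44% were recovered for ATRA against CTRL in co-culture (12111 genes), 91% after restimulation (12783), 89% for restimulation in CTRL cells (11658) and 64% in ATRA cells (12001), and of 4-fold changes 97%, 99%, 100% and 99%. False calls made up 6%, 5.5%, 5.5% and 1.8% of the calls in the same order. The simulation gave all genes 1 common dispersion per comparison and held no stray library, so these shares need not hold for the 64. Batch labels pair CTRL and ATRA libraries of equal number within a state. Their deviations from the group means correlated at 0.10, -0.05 and 0.06 in co-culture and at -0.03, -0.10 and 0.06 after restimulation. No 2 libraries agreed within sampling noise (lowest chi-square per degree of freedom 3.81).

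The members and the gene lists were chosen with earlier results of these data known. Any of the 64 could be named in its role, except 1 that is not reported here. Values per library were given for the 12 genes with the highest smaller ratio, the 8 most abundant in ATRA libraries of either state, the 5 largest and 5 smallest differences between states, members of a list, transcription factors, genes near the limit, and the 4 called genes with the largest restimulation change in each direction. A few further genes were given per library after their values were seen. Genes of other lists were named by smallest p, and family copies and neighbours where a member's value depends on them.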

Additional observations from a re-analysis of the deposited data

Results flagged for a closer look

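For 4 of the 64 genes every restimulated library lay on 1 side of every co-cultured library in CTRL cells and on the other side in ATRA cells, and this difference between the cells was not tested. On the scale of log2 mean CPM with 0.5 added, Kif13a had a restimulation ratio of 0.73 in CTRL and -0.83 in ATRA cells, and Osgin1 had 1.25 and -0.39. Klf3 had -0.71 in CTRL and 0.62 in ATRA cells, and Rnf152 had -0.59 and 1.19. In edgeR's test the changes of Kif13a in both cells, of Osgin1 in CTRL and of Klf3 in CTRL passed the threshold, with adjusted p between 0.0268 and 0.0474, while the ATRA changes of Osgin1 and Klf3 had adjusted p of 0.0502 and 0.0722 and those of Rnf152 0.0879 in CTRL and 0.115 in ATRA cells. Without ATRA replicate 3 the ATRA changes of Klf3 and Rnf152 passed, with adjusted p of 0.00159 and 8.57e-07. The CTRL call of Klf3 was lost in all 6 fits that leave out 1 library, with adjusted p from 0.0506 to 0.149, and that of Osgin1 in 3 of 6, with adjusted p from 0.0707 to 0.141. The CTRL call of Kif13a was lost in 5 of 6 such fits and its ATRA call in 3, and the ATRA change of Osgin1 passed without ATRA replicate 1 or 3. State and batch are confounded in these values and cannot be told apart.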

How the results depend on the processing

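Of 1280 log2 ratios of the 64 genes under the alternatives, 51 moved by more than 1 SD and the lowest was 0.53. That SD joined the spread of single ATRA and single CTRL libraries, so leaving out 1 library could seldom exceed it. Il24 in co-culture, at 2.78 and at 1.86 without ATRA replicate 3, did not count as moved. None changed sign, but the rule's lack of overlap excludes this when libraries are left out or the pseudocount changes. With a minimum of 10 CPM the rule gave 42 genes, and with a log2 threshold of 1 or 2 it gave 154 or 28. Leaving out 1 library gave 56 to 79 genes, and 49 of the 64 remained without ATRA replicate 3. Without both CTRL replicate 1 and ATRA replicate 3, an alternative chosen after seeing the data, 45 of the 64 remained among 54. The other alternatives gave 55 to 92 genes. ATRA against CTRL calls of edgeR in co-culture, 4071 in all, ranged from 1613 to 5617 when 1 library was left out and came to 7980 without both CTRL replicate 1 and ATRA replicate 3. After restimulation there were 7998, with 7247 to 8185 when 1 library was left out. For the restimulation change, 3295 to 5037 genes were called in CTRL cells and 5494 to 9090 in ATRA cells when 1 library was left out, and of the 64 it was 21 to 30 and 18 to 45, the last without ATRA replicate 3. With the replicate block, calls were 2892 and 7751 for ATRA against CTRL in co-culture and after restimulation. For the restimulation change, whose groups share a number but no batch, the block gave 4049 and 6161 calls, with 25 and 26 of the 64 called. Among single-gene fits for the restimulation change under the alternatives, 1100 kept their side of the threshold, 83 lost and 52 gained a call. Changes of sign without a call in either fit were counted among the 1100. Selenbp1 in CTRL cells, at 0.77 and at -0.26 without restimulated CTRL replicate 3, was such a case. A further 3 fits changed sign and gained a call, with edgeR adjusted p of at least 0.646 when all libraries were used. These were Agap1 at 0.44 and Fam114a1 at 0.41 without ATRA replicate 3, and Pde2a at -2.72 without restimulated ATRA replicate 3, all in ATRA cells, where the values with 1 library left out ranged from -0.57 to 0.44, -0.28 to 0.41 and -2.72 to 0.59. The cause of these shifts was not tested. Depth limits the CTRL side, where 8 of the 64 in co-culture and 12 after restimulation had a mean under 1 CPM, so that their ratios depend on the added 0.5 CPM.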
